A study of Schistocerca gregaria with 20 samples.

Results

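The hind legs of *Schistocerca gregaria* embryos (desert locust) were compared between days 7-9 and days 4-6 of development. The legs were represented by 3 libraries at days 7-9, made at days 7, 8 and 8-9, and by 3 libraries at days 4-6, made at days 4, 5 and 6. These 6 libraries were chosen by tissue and age alone, from 20 libraries in the series. The series sequenced mRNA from legs of the third thoracic segment and from pleuropodia, gland-like appendages on the first segment of the abdomen, and holds 1 library for each tissue and stage. Each library held the RNA of many dissected appendages, no treatment or genetic change of the embryos is named in the labels, and the eggs were kept at 30 °C. A library of one day has no replicate of its own day, so the 3 days of a period stood in as replicates and the spread within a period includes change with age.

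Insect legs form as outgrowths of the body wall that elongate, become divided into segments along their length and then differentiate muscles, nerves and an epidermis that secretes cuticle. The gene *Distal-less* (*Dll*) is needed for the outer part of the limb and *dachshund* (*dac*) for the middle part, as known from *Drosophila*. Locust embryos also moult inside the egg: the epidermis lets go of one embryonic cuticle and secretes another.

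The values are RPKM, read numbers divided by transcript length and by library size. The depth of the 6 leg libraries, recovered from these values, ran from 27890837 to 36884141 reads, and the scaling factors for library composition lay between 0.986 and 1.02. The library of day 8-9 was sequenced at another centre than the rest, and in legs its centre cannot be told apart from its age. The methods describe its paired mates as joined and treated as single reads, whereas the labels speak of reads of 1 direction, so the reads recovered for it, the fewest of the 6, may not be independent fragments, and limma-voom used them as they are. Both limb markers were present in all 6 libraries, with *Dll* at 20.1 to 63.0 RPKM and *dac* at 30.6 to 99.4 RPKM. The abdominal gene *abd-A* stayed at or under 0.272 RPKM in the 6 leg libraries. Of the 77 transcripts listed by the study as abundant in secreting pleuropodia, 43 to 57 reached 1 RPKM in legs of days 7-9 and 32 to 45 in legs of days 4-6, with a summed level of 3074 to 3680 RPKM at days 7-9 and 2585 to 2958 RPKM at days 4-6. The same sum was 38241 to 85354 RPKM in pleuropodia of days 7-9. Of the 44 of them tested in legs, 35 had a positive log2 fold change, beside 4461 of 10207 transcripts over all. Single transcripts taken as pleuropodia markers were the lysozymes SgreTa0007897 and SgreTa0017707, the N-acetylglucosaminidase NAG2 (SgreTa0005600) and the aquaporin SgreTa0017577. Both lysozymes and NAG2 were higher in every leg library of days 7-9 than in those of days 4-6, and both lysozymes were at 0 RPKM at day 4. The aquaporin SgreTa0017577 was at 0.115, 0.087 and 0.571 RPKM in legs of days 7, 8 and 8-9, against 2.23, 0.895 and 0.265 RPKM at days 4, 5 and 6. In pleuropodia SgreTa0017577 was at 21.7, 194 and 144 RPKM at days 7, 8 and 8-9, against 1.43, 0.531 and 0.0885 RPKM at days 4, 5 and 6. The part of carried-over pleuropodia tissue in the leg values was not tested.

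Between the periods, 4 transcripts rose in legs and 0 fell, of 10207 tested with limma (two-sided, Benjamini-Hochberg adjusted p under 0.05), which is 0.0392% of those tested. At an unadjusted p under 0.05 there were 2624 transcripts, 1370 of them higher and 1254 lower at days 7-9. limma-voom on the recovered reads called 0 transcripts, with 2585 at an unadjusted p under 0.05. The smallest adjusted p of a transcript with a lower mean at days 7-9 was 0.0532. A transcript was tested if it reached 1 RPKM in 3 or more of the 6 libraries. All 4 were under 1 RPKM in every library of days 4-6, so they passed this filter through days 7-9 alone. Their lack of overlap between the periods was therefore set by the filter and is no separate evidence. None of the 4 carries a name in the sources used here.

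SgreTa0005981 had 7.14, 21.8 and 11.5 RPKM in legs of days 7, 8 and 8-9, against 0 RPKM at each of days 4, 5 and 6. The filter required that the periods did not overlap, and no read was found in the 3 younger libraries. Set against a floor of 3 reads over those libraries together, it was at least 398-fold higher at days 7-9, a ratio that was not tested. The log2 fold change that limma tested, on the log2(RPKM + 0.5) scale, was 4.67 ± 0.39 (SE, n = 3 libraries a period, limma adjusted p = 0.0315).

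SgreTa0016185 had 10.5, 24.4 and 25.7 RPKM at days 7, 8 and 8-9, against 0, 0 and 0.482 RPKM at days 4, 5 and 6. Every older library was above every younger one, which the filter required here too. Its log2 fold change on the log2(RPKM + 0.5) scale was 4.95 ± 0.43 (SE, n = 3 libraries a period, limma adjusted p = 0.0315). SgreTa0016185 was high for a short time, since it was at 0.662, 1.33 and 0.340 RPKM in legs of days 10, 11 and 12, and it was lower there than at days 7-9 (log2 fold change -3.91, limma adjusted p = 0.00748).

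SgreTa0006876 had 6.35, 16.5 and 12.9 RPKM at days 7, 8 and 8-9, against 0.00622, 0 and 0.279 RPKM at days 4, 5 and 6. Again the lack of overlap between the periods was set by the filter. The log2 fold change was 4.32 ± 0.39 (SE, n = 3 libraries a period, limma adjusted p = 0.0315). SgreTa0006876 stood higher still at days 10, 11 and 12, with 145, 174 and 78.8 RPKM (log2 fold change over days 7-9 of 3.57, limma adjusted p = 0.00711).

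SgreTa0009552 had 8.29, 9.78 and 7.75 RPKM at days 7, 8 and 8-9, against 0.0445, 0.323 and 0.409 RPKM at days 4, 5 and 6. Its older libraries lay close together and well above the younger ones. The log2 fold change was 3.62 ± 0.26 (SE, n = 3 libraries a period, limma adjusted p = 0.028). In pleuropodia SgreTa0009552 took another course, with 0.0477, 0.0609 and 0 RPKM at days 7, 8 and 8-9, against 0.0793, 2.0 and 32.5 RPKM at days 4, 5 and 6.

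**Figure D1:**
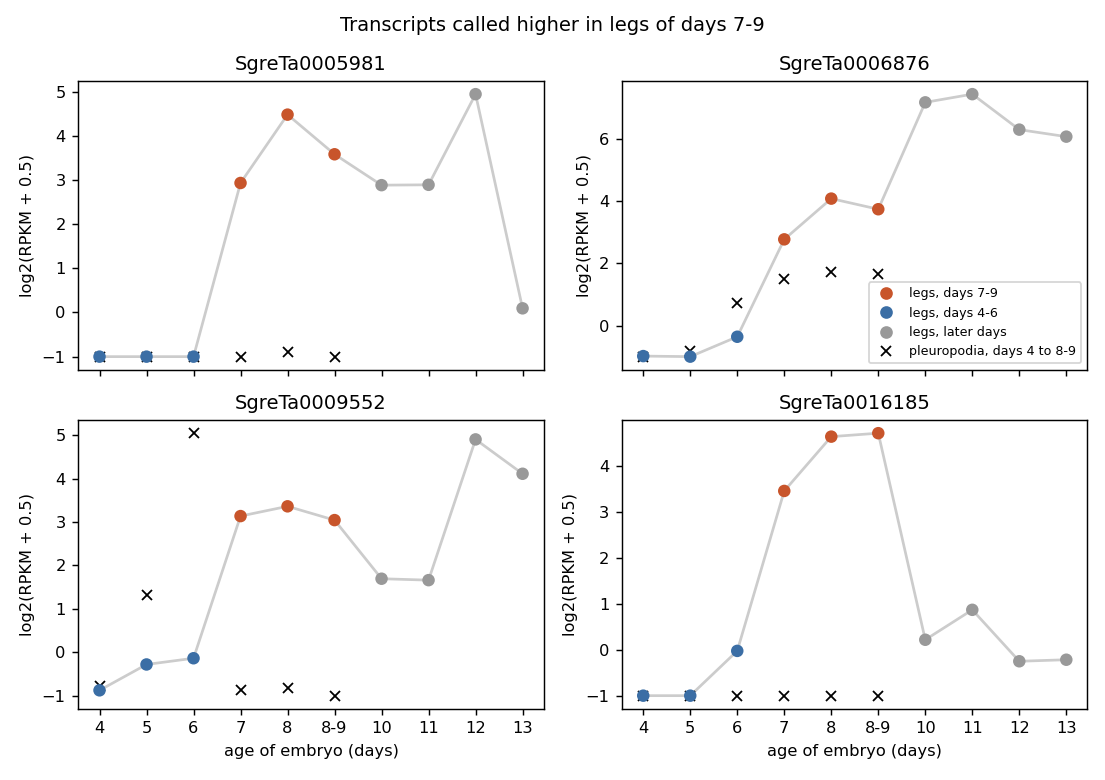
Level of the 4 transcripts called higher in legs of days 7-9, as log2(RPKM + 0.5), in each leg library (points, orange for days 7-9, blue for days 4-6, grey for later days) and in pleuropodia up to day 8-9 (crosses), by age in days. All orange points lie above all blue points, which the filter required of transcripts under 1 RPKM at days 4-6. SgreTa0016185 is low again from day 10, and SgreTa0006876 is higher there.

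These 4 calls depended on single libraries and on settings. Without the leg library of day 5 there were 0 calls, and without that of day 4 there was 1. Without the library of day 8 or day 8-9 there were also 0 calls, but then the 4 transcripts were no longer tested, since only 2 libraries were left with at least 1 RPKM. Over the 11 alternatives in which the 4 were tested between the periods, their adjusted p ran from 0.0059 to 0.221. Without the library of day 6 there were 390 calls higher and 73 lower, and without that of day 7, when the 4 were again not tested, there were 213 higher and 121 lower.

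A line on age over the same 6 libraries called many more transcripts than the comparison of the 2 periods. With 8.5 days given to the library of day 8-9, limma called a rising slope for 1334 transcripts (13.1% of those tested) and a falling slope for 1291 (12.6%). The median residual SD on the log2 scale was 0.189 around the line and 0.220 around the 2 period means, and 75.3% of transcripts lay closer to their line. The rising transcripts had a median log2 fold change between the periods of 1.05, and the falling ones of -0.47. The library of day 8-9, from the other centre, had the highest age of the 6, so every slope leans on it. The line was not fitted without that library, so its part in the slope calls was not tested. The line on age was one of the alternatives to the comparison of periods, and its adjusted p from limma is called the slope adjusted p in what follows.

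**Figure D2:**
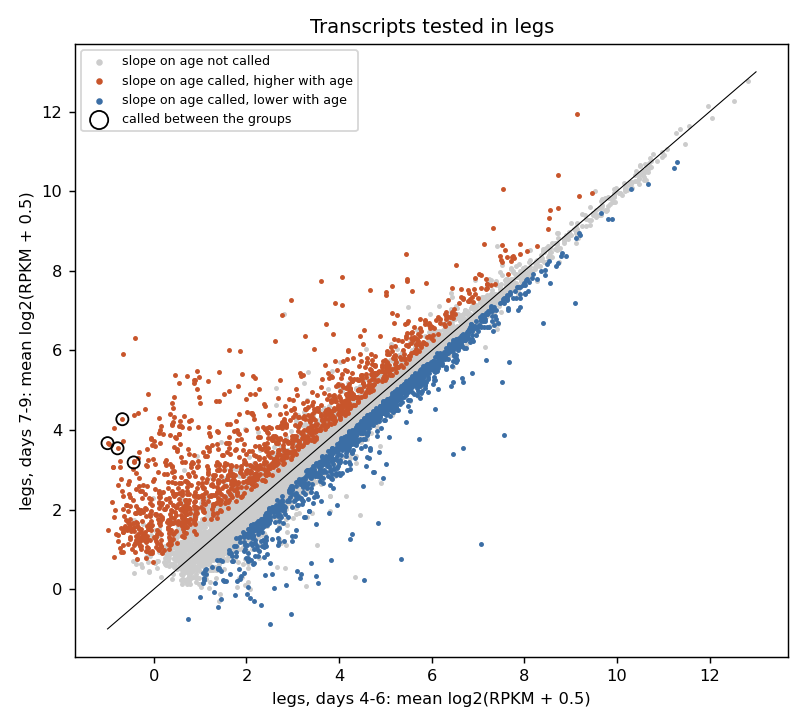
Mean log2(RPKM + 0.5) of the 10207 transcripts tested, in legs of days 7-9 (vertical axis) against days 4-6 (horizontal axis), with the line of equal level. Orange points are the 1334 transcripts with a rising slope on age, blue points the 1291 with a falling one, and black circles the 4 called between the periods.

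The number of transcripts over 2-fold apart between successive leg libraries, with over 10 RPKM in the higher one, was smallest in the middle of the series. It was 132 between days 4 and 5, 87 between days 5 and 6, 96 between days 6 and 7, 213 between days 7 and 8 and 546 between days 8 and 8-9. From day 7 to day 8 the moves were mostly upward, with 185 higher and 28 lower. The last step, with 375 higher and 171 lower, joined libraries of different centres. With all 20 libraries scaled together, a set of pairs chosen after the values were seen, the library of day 10 differed from that of day 8-9 in 1056 transcripts and from that of day 8 in 636.

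**Figure D3:**
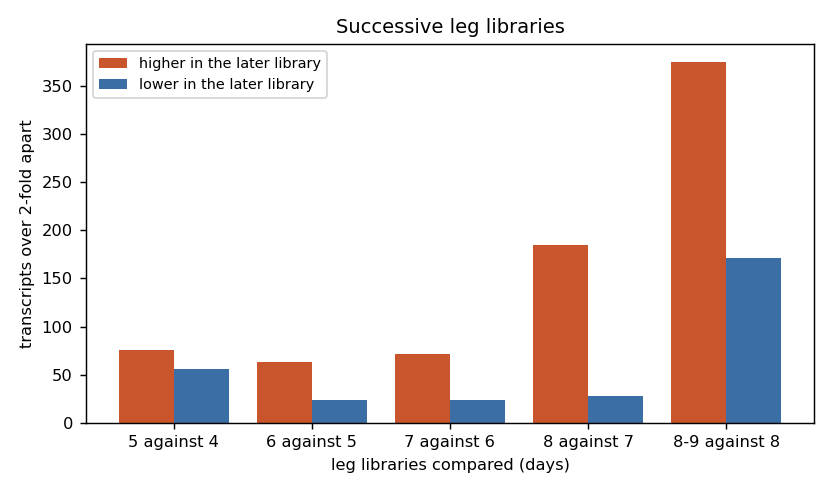
Number of transcripts over 2-fold apart between each leg library and the one before it, counted separately for those higher (orange) and lower (blue) in the later library, with over 10 RPKM in the higher library of the pair. The step from day 7 to day 8 holds 185 higher and 28 lower transcripts, against 72 and 24 from day 6 to day 7.

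The transcripts with the largest folds were taken next, from those with periods that did not overlap and a mean of at least 10 RPKM in the higher period. They were chosen after their values were seen, and none of those described here passed the comparison of periods. Of the transcripts tested, 1646 (16.1%) lay higher at days 7-9 without overlap and 2261 (22.2%) lay lower.

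SgreTa0009850 had 11.7, 420 and 97.1 RPKM at days 7, 8 and 8-9, against 0.0871, 0.253 and 0.480 RPKM at days 4, 5 and 6 (log2 fold change 6.72 ± 1.16 SE, limma adjusted p = 0.064, limma slope adjusted p = 0.0101). SgreTa0007418 had 2.56, 504 and 140 RPKM at days 7, 8 and 8-9, against 0.107, 0.111 and 0.163 RPKM at days 4, 5 and 6 (log2 fold change 6.59 ± 1.70 SE, limma adjusted p = 0.0981, limma slope adjusted p = 0.0206). Both were far higher at day 8 than at day 7 or day 8-9, and that spread within the older period is part of their error.

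Other transcripts were at the start of a longer climb. SgreTa0013602 had 16.5, 80.6 and 34.5 RPKM at days 7, 8 and 8-9, against 0.0745, 0.832 and 3.69 RPKM at days 4, 5 and 6 (limma adjusted p = 0.0654, limma slope adjusted p = 0.0026), and it reached 9059 RPKM at day 13. SgreTa0014887 had 8.62, 42.0 and 30.3 RPKM at days 7, 8 and 8-9, against 0, 0.165 and 1.54 RPKM at days 4, 5 and 6 (limma adjusted p = 0.0532, limma slope adjusted p = 0.0024), and it reached 1966 RPKM at day 13. Both lay above their younger level in each older library, as the choice of transcripts required.

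Among transcripts with a rising slope, SgreTa0004545 had the highest mean at days 7-9. It had 2611, 4757 and 4858 RPKM at days 7, 8 and 8-9, against 155, 547 and 2066 RPKM at days 4, 5 and 6 (log2 fold change 2.82 ± 0.85 SE, limma adjusted p = 0.122, limma slope adjusted p = 0.00346). SgreTa0013144 had 852, 1353 and 2193 RPKM at days 7, 8 and 8-9, against 178, 632 and 670 RPKM at days 4, 5 and 6 (limma adjusted p = 0.14, limma slope adjusted p = 0.0054). SgreTa0013144 was at 12.2, 11.3 and 1.51 RPKM at days 10, 11 and 12, lower than at days 7-9 (log2 fold change -7.57, limma adjusted p = 0.0059).

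On the lower side, SgreTa0000374 had the largest fold. It had 4.54, 2.35 and 0.230 RPKM at days 7, 8 and 8-9, against 1501, 251 and 5.94 RPKM at days 4, 5 and 6 (log2 fold change -5.94 ± 1.89 SE, limma adjusted p = 0.133, limma slope adjusted p = 0.00412). Most of its drop lay within the younger period, between days 4 and 6. In pleuropodia SgreTa0000374 was still at 5490 RPKM at day 6 and was at 2.73 RPKM at day 7.

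SgreTa0004419 had 29.9, 8.92 and 10.3 RPKM at days 7, 8 and 8-9, against 277, 195 and 121 RPKM at days 4, 5 and 6 (log2 fold change -3.68 ± 0.49 SE, limma adjusted p = 0.0532, limma slope adjusted p = 0.0024). SgreTa0006657 had 2.82, 0.295 and 0.0969 RPKM at days 7, 8 and 8-9, against 28.8, 29.8 and 13.4 RPKM at days 4, 5 and 6 (log2 fold change -4.31 ± 0.67 SE, limma adjusted p = 0.0549, limma slope adjusted p = 0.00285). Neither had an older library as high as its lowest younger one, which the choice of transcripts also required.

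Of the 15 transcripts with a falling slope and the highest means at days 4-6, 2 had log2 fold changes below -1, SgreTa0000374 and SgreTa0004977, and the other 13 had log2 fold changes of -0.64 to -0.21. SgreTa0004977 had 125, 228 and 107 RPKM at days 7, 8 and 8-9, against 526, 665 and 460 RPKM at days 4, 5 and 6 (log2 fold change -1.90 ± 0.30 SE, limma adjusted p = 0.056, limma slope adjusted p = 0.0268). Its periods lay well apart. Among the 13, SgreTa0002550 had 1995, 1684 and 1424 RPKM at days 7, 8 and 8-9, against 2854, 2480 and 2259 RPKM at days 4, 5 and 6 (log2 fold change -0.57 ± 0.16 SE, limma adjusted p = 0.112, limma slope adjusted p = 0.00488). SgreTa0009063 had 1782, 1483 and 1372 RPKM at days 7, 8 and 8-9, against 2730, 2445 and 2077 RPKM at days 4, 5 and 6 (limma adjusted p = 0.0907, limma slope adjusted p = 0.00299). SgreTa0002550 and SgreTa0009063 were lower in every library than in the one before it.

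Among the limb and Hox genes, 3 of 4 were tested and 0 passed the comparison of periods, with a rising slope called for 2, beside 13.1% over all transcripts tested. Their median log2 fold change was 0.61, beside -0.06 over all transcripts tested. *dac* (SgreTd0002755) had 82.3, 81.9 and 99.4 RPKM at days 7, 8 and 8-9, against 30.6, 46.5 and 74.3 RPKM at days 4, 5 and 6, with no overlap (log2 fold change 0.89 ± 0.29 SE, limma adjusted p = 0.135, limma slope adjusted p = 0.00646). *Ubx* (SgreTf0014307), the Hox gene of the hind leg and first abdominal segments, had 121, 100 and 139 RPKM at days 7, 8 and 8-9, against 59.0, 71.7 and 112 RPKM at days 4, 5 and 6 (limma adjusted p = 0.172, limma slope adjusted p = 0.0203). Its periods overlapped, with day 6 above day 8.

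*Dll* (SgreTf0013577) had 30.8, 20.1 and 63.0 RPKM at days 7, 8 and 8-9, against 33.4, 30.8 and 35.8 RPKM at days 4, 5 and 6 (log2 fold change 0.04 ± 0.37 SE, limma adjusted p = 0.957). Its highest value was that of the library sequenced at the other centre, without which the log2 fold change was -0.41. At days 10, 11 and 12, *dac* had 65.6, 72.8 and 21.3 RPKM, *Ubx* 87.1, 99.4 and 24.0 RPKM and *Dll* 16.1, 18.2 and 2.26 RPKM. None passed the test of days 10-12 against days 7-9 (limma adjusted p = 0.263 for *dac*, 0.283 for *Ubx* and 0.216 for *Dll*), and day 12 was the lowest of these libraries for each.

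**Figure D4:**
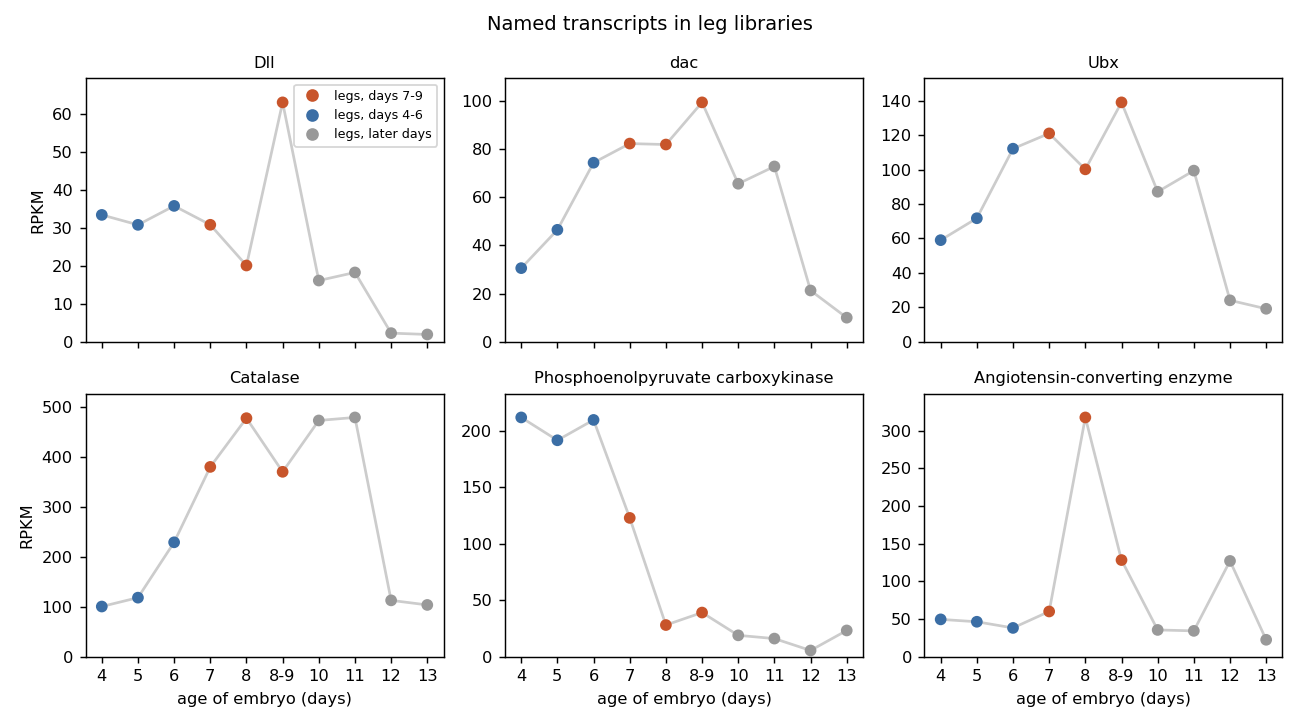
RPKM of *Dll*, *dac*, *Ubx*, catalase, phosphoenolpyruvate carboxykinase and angiotensin-converting enzyme in the 10 leg libraries by age in days (orange for days 7-9, blue for days 4-6, grey for later days). Each vertical axis starts at 0, and angiotensin-converting enzyme stands at 318 RPKM at day 8, against 60.1 RPKM at day 7.

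The remaining lists came from names that the study printed beside transcript identifiers. Most were printed because the transcript is abundant in pleuropodia and higher there than in legs, so they are not a sample of leg genes. Of the 77 abundant pleuropodia transcripts, 44 passed the filter on low values in legs, 0 passed the comparison of periods in either direction, and the slope was called rising for 17 and falling for 4, beside 13.1% rising and 12.6% falling over all transcripts tested. Their median log2 fold change was 0.67. The slope counts of the shorter lists that follow stand beside these same shares.

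In sugar and nitrogen metabolism, 4 of 5 members were tested and 1 had a called slope, downward. This was phosphoenolpyruvate carboxykinase (SgreTa0013377), which feeds the synthesis of glucose. It had 123, 28.1 and 39.2 RPKM at days 7, 8 and 8-9, against 212, 192 and 210 RPKM at days 4, 5 and 6 (log2 fold change -1.97 ± 0.49 SE, limma adjusted p = 0.0929, limma slope adjusted p = 0.0181). The younger libraries were nearly level, and all 3 older ones lay below them.

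In the redox and iron list, 3 of 4 members were tested, with 1 rising and 1 falling slope. Catalase (SgreTa0009095), which breaks down hydrogen peroxide, had 380, 478 and 370 RPKM at days 7, 8 and 8-9, against 101, 118 and 229 RPKM at days 4, 5 and 6 (log2 fold change 1.54 ± 0.29 SE, limma adjusted p = 0.0676, limma slope adjusted p = 0.00538). Peroxiredoxin (SgreTa0013400), another peroxide-removing enzyme, had 130, 138 and 117 RPKM at days 7, 8 and 8-9, against 274, 189 and 156 RPKM at days 4, 5 and 6 (limma slope adjusted p = 0.0107). The periods did not overlap for either enzyme, and their directions were opposite. Ferritin (SgreTa0013328), the iron store, averaged 250 ± 27 RPKM at days 7-9 and 217 ± 8.0 RPKM at days 4-6 (SD, n = 3 libraries a period, limma adjusted p = 0.256).

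Of the lysosomal proteins, all 3 were tested and 1 had a rising slope. The homolog of lipopolysaccharide-induced tumor necrosis factor-alpha factor (SgreTa0001486) had 130, 102 and 126 RPKM at days 7, 8 and 8-9, against 19.7, 29.1 and 91.4 RPKM at days 4, 5 and 6 (limma adjusted p = 0.124, limma slope adjusted p = 0.0128). Cathepsin L (SgreTb0000759), a lysosomal protease, averaged 94.8 ± 13 RPKM at days 7-9 and 97.1 ± 3.2 RPKM at days 4-6 (SD, n = 3 libraries a period, limma adjusted p = 0.864). The lysosomal-associated membrane protein (SgreTa0007774) averaged 197 ± 6.0 RPKM at days 7-9 and 228 ± 20 RPKM at days 4-6 (SD, n = 3 libraries a period, limma adjusted p = 0.261).

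Of 28 proteases, 10 were tested, with 3 rising slopes and 1 falling slope, and of the 24 of the moulting fluid type 8 were tested, with 3 rising and 1 falling, beside 13.1% and 12.6% over all transcripts tested. Angiotensin-converting enzyme (SgreTa0014009), a peptidase that trims small peptides, had 60.1, 318 and 128 RPKM at days 7, 8 and 8-9, against 49.7, 46.5 and 38.3 RPKM at days 4, 5 and 6 (log2 fold change 1.59 ± 0.55 SE, limma adjusted p = 0.147, limma slope adjusted p = 0.0817). Its day 8 library stood far above the rest. The Snake-like serine protease SgreTa0000783 had 4.27, 3.22 and 4.97 RPKM at days 7, 8 and 8-9, against 10.3, 8.82 and 4.97 RPKM at days 4, 5 and 6 (limma slope adjusted p = 0.032). Of 3 protease inhibitors, the serpin SgreTa0006539 had a rising slope (limma slope adjusted p = 0.0274), with 11.3, 10.6 and 11.1 RPKM at days 7, 8 and 8-9, against 1.78, 6.99 and 7.02 RPKM at days 4, 5 and 6.

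The 2 enzymes of chitin breakdown with an identifier here were low in legs of both periods, and 1 of 2 was tested. The study names further enzymes of this kind, which were not paired with identifiers, so their level in legs is not given. The N-acetylglucosaminidase NAG2 (SgreTa0005600), which splits chitin fragments, had 2.93, 7.17 and 3.14 RPKM at days 7, 8 and 8-9, against 0.356, 0.526 and 1.88 RPKM at days 4, 5 and 6 (limma adjusted p = 0.1, limma slope adjusted p = 0.013). Chitinase 5 (SgreTa0017664), which cuts the chitin chain, had 0.330, 7.12 and 2.65 RPKM at days 7, 8 and 8-9, against 0, 0 and 0.211 RPKM at days 4, 5 and 6, and did not pass the filter. Both were higher at day 8 than in the other 5 libraries. Pro-phenol oxidase subunit 2 (SgreTa0006966), which takes part in melanin formation, also failed the filter, with 0.332, 24.7 and 9.77 RPKM at days 7, 8 and 8-9, against 0, 0 and 0.0198 RPKM at days 4, 5 and 6. Of the 3 members of its list, on recognition of microbes and melanization, the only one tested was Gram-negative bacteria binding protein 3 (SgreTa0009559), which averaged 2.42 ± 0.78 RPKM at days 7-9 and 1.05 ± 0.17 RPKM at days 4-6 (SD, n = 3 libraries a period, limma adjusted p = 0.132, limma slope adjusted p = 0.0376).

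Of the 4 lysozymes, enzymes that cut bacterial cell walls, 2 were tested and both had a rising slope. The I-type lysozyme SgreTa0017707 had 18.9, 16.9 and 9.41 RPKM at days 7, 8 and 8-9, against 0, 0.139 and 4.26 RPKM at days 4, 5 and 6 (log2 fold change 3.71 ± 0.83 SE, limma adjusted p = 0.0805, limma slope adjusted p = 0.014). The C-type lysozyme SgreTa0008528 averaged 5.08 ± 2.5 RPKM at days 7-9 and 2.40 ± 1.2 RPKM at days 4-6 (SD, n = 3 libraries a period, limma adjusted p = 0.192, limma slope adjusted p = 0.0214). The C-type lysozyme SgreTa0007897 was at 0.530, 9.00 and 2.85 RPKM at days 7, 8 and 8-9, against 0, 0.0858 and 0.423 RPKM at days 4, 5 and 6. These lysozymes are abundant in pleuropodia of the same days, where SgreTa0017707 reached 3717 RPKM at day 8, and the part of carried-over tissue was not tested.

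Of 7 members of the lipid list, 4 were tested and 3 had a rising slope. An alpha-tocopherol transfer protein (SgreTa0005752) had 9.18, 11.3 and 8.34 RPKM at days 7, 8 and 8-9, against 1.98, 2.95 and 4.80 RPKM at days 4, 5 and 6 (log2 fold change 1.5 ± 0.28 SE, limma adjusted p = 0.0676, limma slope adjusted p = 0.00714). Vigilin (SgreTa0007081), an RNA-binding protein, averaged 203 ± 39 RPKM at days 7-9 and 146 ± 4.5 RPKM at days 4-6 (SD, n = 3 libraries a period, limma adjusted p = 0.136, limma slope adjusted p = 0.0375). Of the 4 transport proteins, 2 were tested and 0 had a called slope. The alpha subunit of the sodium pump (SgreTa0001469) averaged 93.4 ± 13 RPKM at days 7-9 and 88.9 ± 6.3 RPKM at days 4-6 (SD, n = 3 libraries a period, limma adjusted p = 0.747). The proteolipid subunit of the V-type proton pump (SgreTa0014626) averaged 234 ± 96 RPKM at days 7-9 and 150 ± 11 RPKM at days 4-6 (SD, n = 3 libraries a period, limma adjusted p = 0.223), with 342 RPKM at day 8-9.

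Of 12 other named transcripts, 7 were tested, with 3 rising slopes and 1 falling slope, beside 13.1% and 12.6% over all transcripts tested. Bax inhibitor 1 (SgreTa0016256), a membrane protein that counters cell death, had 259, 333 and 382 RPKM at days 7, 8 and 8-9, against 192, 217 and 248 RPKM at days 4, 5 and 6 (log2 fold change 0.56 ± 0.17 SE, limma adjusted p = 0.118, limma slope adjusted p = 0.00516). A collagen (SgreTa0003175) had 1.19, 1.41 and 2.77 RPKM at days 7, 8 and 8-9, against 0, 0.0426 and 0.693 RPKM at days 4, 5 and 6 (limma adjusted p = 0.102, limma slope adjusted p = 0.00602). Every older library lay above every younger one for both.

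**Figure D5:**
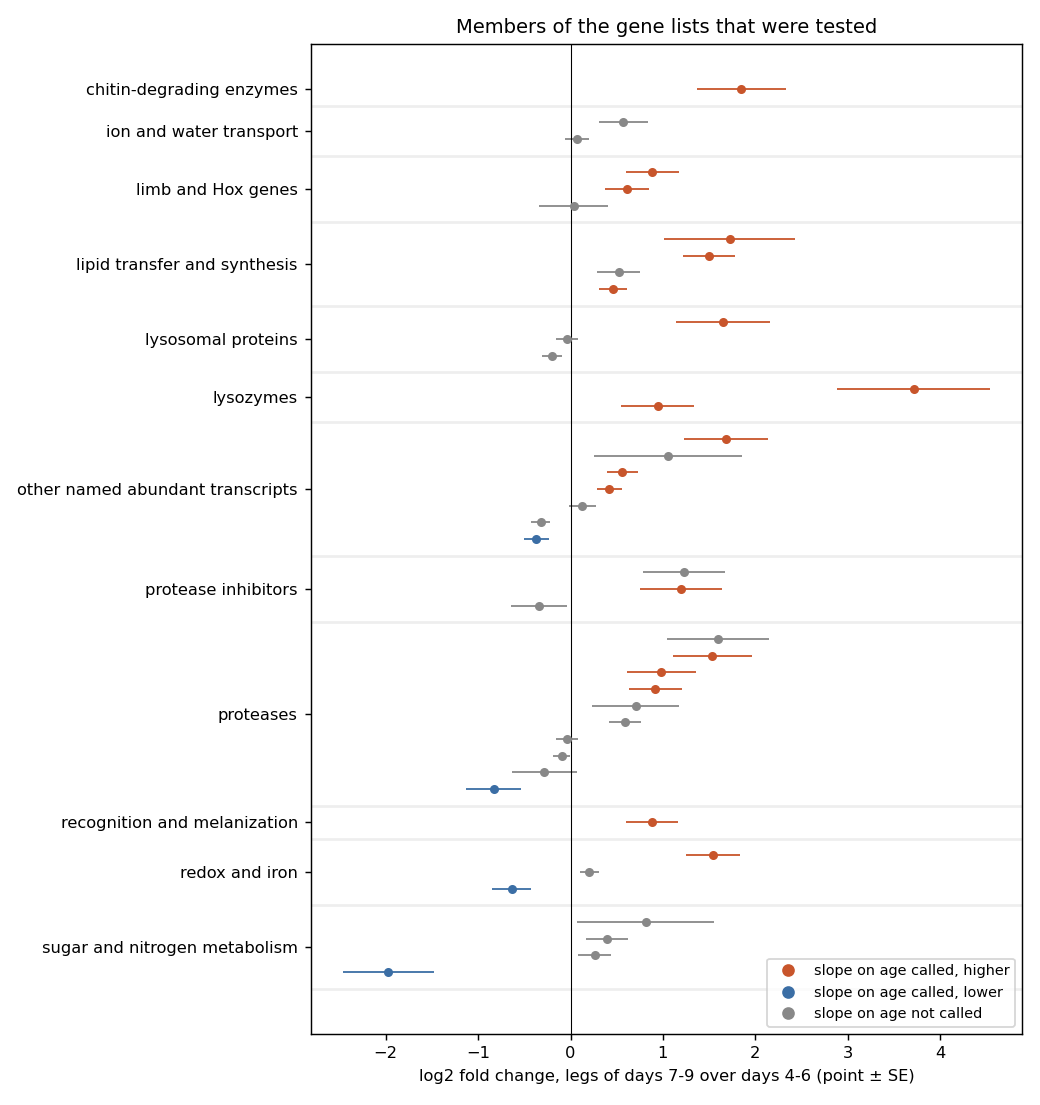
Log2 fold change of tested list members in legs, days 7-9 over days 4-6, grouped by list. Values are on the log2(RPKM + 0.5) scale (point ± SE, n = 3 libraries a period). The abundant pleuropodia transcripts and the moulting fluid type proteases are not drawn as groups of their own. Abundant pleuropodia transcripts without a name are therefore absent. Orange marks a rising and blue a falling slope on age, and the lowest point is phosphoenolpyruvate carboxykinase at -1.97.

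The change of the legs was then set against that of the pleuropodia over the same days. Of 11326 transcripts tested, limma called a more positive change in legs for 677 (5.98%) and a more negative one for 1475 (13.0%). Without the scaling for composition these numbers were 1060 and 1075, and the median difference over all transcripts was 0.30 on the log2 scale, against 0.02 with scaling. With the day of the embryo as a block shared by both tissues they were 1319 and 2013. Of the 4 transcripts that rose in legs, SgreTa0005981, SgreTa0009552 and SgreTa0016185 were among those with a more positive change in legs, and for SgreTa0006876 the difference was 2.08 ± 0.67 on the log2 scale (SE, limma adjusted p = 0.054). These 4 were picked for their rise in legs, and the same leg values enter this test, so the direction is no independent evidence.

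Of the 77 abundant pleuropodia transcripts, 74 were tested for this difference, and the change was more negative in legs for 58 and more positive for 0. The study chose that list for its level in pleuropodia of later days, so its direction is no independent evidence. In the limb and Hox list, *dac* and *Ubx* had a more positive change in legs, by 2.68 ± 0.69 and 3.09 ± 0.41 on the log2 scale (SE, limma adjusted p = 0.0215 and 0.000526). *Ubx* was at 28.8, 13.8 and 25.1 RPKM in pleuropodia of days 7, 8 and 8-9, against 176, 188 and 104 RPKM in those of days 4, 5 and 6.

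At the later end, legs of days 10-12 differed from legs of days 7-9 by 792 transcripts higher (7.12% of 11126 tested) and 104 lower (0.935%). This comparison uses the libraries of days 7-9 again. Its counts fell to 0 higher and 0 lower without the library of day 11, and to 22 and 6 without that of day 10. Without the library of day 12 they were 618 and 515. Leaving out day 7, day 8 or day 8-9 gave 172, 293 or 171 higher and 11, 17 or 15 lower.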

How the data were processed

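Alignment was done by the authors in the local mode of Bowtie2 (2.2.5), against a transcriptome assembled from embryos. Reads of day 8-9 were first shortened with Trimmomatic, and weakly expressed transcripts were removed with HTSFilter. RPKM of 12988 transcripts were deposited. Columns of the authors' own comparison (mean RPKM, ratio, probability) were not used. Reads were recovered from the RPKM: 100.0% of values were whole within 0.05 reads. Where several lengths did this the shortest was taken.

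RPKM were scaled by TMM (30% of ratios and 5% of abundances trimmed), and limma 3.58.1 (trend, R 4.3.3) was run on log2(RPKM + 0.5) for transcripts that reached 1 RPKM in 3 or more libraries. Tables and figures used Python 3.11.15. Fold changes on this scale understate those of low transcripts. On simulated data with 10312 transcripts tested and the same spread for all, the comparison of periods called 67 of 67 transcripts changed 2-fold, and 13 of 213 calls were false. On data simulated as a line on age, the slope was called for 56 of 67 changed 2-fold, and 10 of 199 calls were false. The simulated spread was equal for all transcripts and held no change with age, unlike that of the real libraries. These numbers therefore do not give the share of real changes that was found.

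Alternatives changed the scaling, pseudocount, filter, libraries, test and model of age. Named were all list members, called transcripts with the largest folds or levels, and, chosen after their values were seen, others of large fold or level. Members and lists were chosen with earlier results of these data known. Names are those the study prints beside identifiers. Ecdysone synthesis was not analysed here. P-values measure the spread between libraries of different days.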

Additional observations from a re-analysis of the deposited data

Results flagged for a closer look

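The results below are given because the change from days 4-6 to days 7-9 differed between legs and pleuropodia by the test of the difference itself (limma, adjusted p under 0.05, log2 scale, positive where legs changed more upward). Over all transcripts there were 677 with a more positive and 1475 with a more negative change in legs. The periods hold 3 libraries each, too few to look for single libraries far from the others.

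More positive changes in legs were found for SgreTa0005981 (4.55), SgreTa0009552 (6.26), SgreTa0016185 (4.88), SgreTa0013602 (4.65), SgreTa0014887 (4.71), SgreTa0013144 (2.88), SgreTa0004977 (3.50), *dac* (SgreTd0002755, 2.68) and *Ubx* (SgreTf0014307, 3.09). Apart from SgreTa0004977, *dac* and *Ubx*, they were named for a rise in legs. The same leg values enter this test, so their direction is no independent evidence. A more positive change need not be a rise: SgreTa0004977 had a log2 fold change of -1.90 in legs and -5.38 in pleuropodia.

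More negative changes in legs were found for the lysozymes SgreTa0017707 (-6.38), SgreTa0007897 (-7.52) and SgreTa0008528 (-8.52), the aquaporin SgreTa0017577 (-7.56), the collagen SgreTa0003175 (-7.30), the alpha-tocopherol transfer protein SgreTa0005752 (-6.57), the Gram-negative bacteria binding protein SgreTa0009559 (-6.57) and the serpin SgreTa0006539 (-5.17). Smaller ones were those of the Snake-like protease SgreTa0000783 (-4.03), cathepsin L SgreTb0000759 (-2.44), the proton pump subunit SgreTa0014626 (-2.27), peroxiredoxin SgreTa0013400 (-2.25), ferritin SgreTa0013328 (-1.94), the lysosomal membrane protein SgreTa0007774 (-1.89), Bax inhibitor 1 SgreTa0016256 (-1.55) and the sodium pump subunit SgreTa0001469 (-1.23). All transcripts in this paragraph are on the list that the study drew from those higher in pleuropodia than in legs at days 10-12. Their direction is therefore no independent evidence. A more negative change need not be a fall: the log2 fold change in legs was 3.71 for SgreTa0017707 and -0.64 for SgreTa0013400.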

How the results depend on the processing

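The 4 transcripts called higher in legs of days 7-9 stayed positive in every alternative in which they were tested (log2 fold changes of 2.94 to 9.50 between the periods), but the number of calls did not hold. It was 4 higher and 0 lower without TMM, with median-of-ratios factors and with legs of days 10-12 as an added group (2 of the 4 transcripts called there were among the first 4), 1 and 0 with a pseudocount of 0.1 or of 1, and 0 and 0 without the filter, with at least 5 RPKM and with limma-voom on recovered reads. With a slope on age it was 1334 and 1291. Leaving out 1 library at a time gave 0 to 390 higher and 0 to 121 lower. The cause was not tested. For legs against pleuropodia, the counts were 1060 and 1075 without TMM and 1319 and 2013 with the day as a replicate block, and 317 to 1269 and 608 to 2051 with 1 library left out, the lowest without pleuropodia of day 8 and the highest without pleuropodia of day 6. Each leg library is of a different day, so no library of days 4-6 has a partner at days 7-9 and no paired analysis was possible within legs. For legs of days 10-12 against days 7-9 the counts were 348 and 63 with at least 5 RPKM, and 0 to 618 and 0 to 515 with 1 library left out. Values near 0 changed sign with 1 library left out, with a range of -0.41 to 0.40 for *Dll*, -0.0405 to 0.164 for the sodium pump subunit SgreTa0001469 and -0.115 to 0.0762 for cathepsin L SgreTb0000759, whose value was 0.00014 with the added group. Deposited RPKM gave counts between successive libraries within 1.5 times of those scaled.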

Other observations

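Transcripts that stepped up in legs from day 7 to day 8 often stepped up again from day 11 to day 12. This comparison was chosen after the values were seen, and its steps share no library. With all libraries scaled together, 99 transcripts were at least 3-fold higher at day 8 than at day 7 with at least 10 RPKM at day 8, and 867 were at least 3-fold higher at day 12 than at day 11 by the same rule. Both held for 65, which is 65.7% of the transcripts of day 8 and 7.50% of those of day 12. Of the 6873 transcripts with at least 10 RPKM in any of these 4 libraries, 12.6% met the rule at day 12 and 1.44% met it at day 8. Each day is 1 library, so these are values of single libraries with no test.

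SgreTa0007334 had 596 RPKM at day 8 and 1420 RPKM at day 12, with 0.434 RPKM at day 7 and 2.59 RPKM at day 11. SgreTa0013208 had 358 RPKM at day 8 and 368 RPKM at day 12, with 31.2 RPKM at day 7 and 20.7 RPKM at day 11. Angiotensin-converting enzyme (SgreTa0014009) was among the 65, with 318 RPKM at day 8 and 127 RPKM at day 12. The rule asked for no fall between the steps. SgreTb0005754 had 154 RPKM at day 8, then 1282 and 1912 RPKM at days 10 and 11 and 9982 RPKM at day 12.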
